A study of Mus musculus with 6 samples.

Results

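The phagocyte NADPH oxidase is a membrane enzyme that passes electrons from NADPH to oxygen and so makes superoxide. It was followed here through 6 genes of 19938 tested: Cybb and Cyba for the membrane cytochrome, Ncf1 and Ncf4 for cytosolic subunits, Rac2 for the GTPase that switches the complex on, and Hvcn1 for the proton channel that works beside it. The genes were chosen by function and not by a threshold on their values, although earlier results of these data were known at the time. Each had 1 probe set paired with its symbol alone on the Affymetrix Gene 1.0 ST array, so each gene rests on a single measurement per array.

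RNA came from F4/80+ cells (F4/80 marks mouse macrophages) taken from tumours implanted in wild type mice or in St2-/- mice, which lack ST2, the receptor for the cytokine IL-33. There were 3 samples in each group and 1 array per sample. The labels give no tumour type, strain, age, sex, time after implantation or treatment, and only the host is described as lacking St2, so the genotype of the implanted cells is not known here. Nor do they state that samples are separate animals; the p-values thus cover the spread among these 6 samples, part or all of which could be technical. No probe set used here was named for the gene of ST2, and the genotype labels were not checked against it. Values are log2 expression levels from the authors' RMA, where a difference of 1 is a doubling. Differences are St2-/- minus wild type, tested with limma and adjusted by Benjamini-Hochberg over all genes, and a gene is called where that adjusted p is under 0.05.

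In resting phagocytes the oxidase lies apart in pieces. Its cytochrome, a pair of Cybb (gp91phox) and Cyba (p22phox) proteins, sits in membranes, while cytosolic proteins such as Ncf1 (p47phox) and Ncf4 (p40phox) wait apart and join it after phosphorylation, together with GTP-bound Rac. Superoxide made by the complex feeds the killing of microbes in phagosomes, and loss of its subunits causes chronic granulomatous disease. In tumours, macrophages and other myeloid cells are known sources of such oxidants.

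Of the 6 oxidase genes, 4 rose in St2-/- (Rac2, Ncf4, Cybb and Hvcn1), 0 fell, and Cyba and Ncf1 were not called. Over all genes 20.8% were called, 10.7% higher and 10.0% lower, so calls were common in this comparison. All 6 oxidase genes lay above the dimmest 40% of genes. With that 40% left out, the same 4 were called, beside 4505 of 11955 genes (2556 higher and 1949 lower). The arrays of the groups did not overlap for 5 of the 6, all higher in St2-/-, and for 36.4% of all genes (18.1% higher and 18.3% lower). The median log2 difference was 0.59 over the 6 oxidase genes and -0.02 over all genes tested. Rac2 had the greatest rise of the 6, to a level 2.12-fold higher, followed by Ncf4 (1.72-fold), Cybb (1.52-fold) and Hvcn1 (1.49-fold); the 95% intervals of Ncf4, Cybb and Hvcn1 overlapped one another.

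The membrane cytochrome was measured by both of its genes, of which Cybb was called and Cyba was not. Cybb encodes the catalytic subunit, which carries the haem groups and the NADPH site. Its log2 values were 11.73, 11.73 and 11.74 on the wild type arrays and 12.37, 12.27 and 12.37 on the St2-/- arrays. The groups did not overlap, and the lowest St2-/- array lay well above all wild type arrays. The means were 11.73 ± 0.01 and 12.34 ± 0.06 (SD, n = 3 each), which puts Cybb higher by 0.60 ± 0.06 in log2 (SE; 95% interval 0.46 to 0.74; limma adjusted p = 0.000107).

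Cyba encodes the partner subunit, which stabilises the catalytic one and holds the docking site for Ncf1. Its log2 values were 10.87, 10.73 and 10.71 in wild type and 10.96, 10.88 and 10.93 in St2-/-. All St2-/- arrays lay above all wild type arrays, but wild type replicate 1 came within 0.01 of the lowest of them. The log2 difference was 0.15 ± 0.07 (SE; 95% interval -0.00033 to 0.31) and was not called (limma adjusted p = 0.153). Cyba was called higher with arrays centred on their medians (0.24, adjusted p = 0.0296) and with a variance prior that follows intensity (adjusted p = 0.0243). Within each array, Cybb minus Cyba was 0.86, 1.00 and 1.03 in wild type and 1.41, 1.39 and 1.44 in St2-/-, so the ratio of the cytochrome genes was higher on every St2-/- array. The exact two-sided permutation p of this change of 0.45 was 0.10, the smallest that 3 against 3 arrays allow, and 0.15 adjusted over 3 such ratios.

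**Figure D1:**
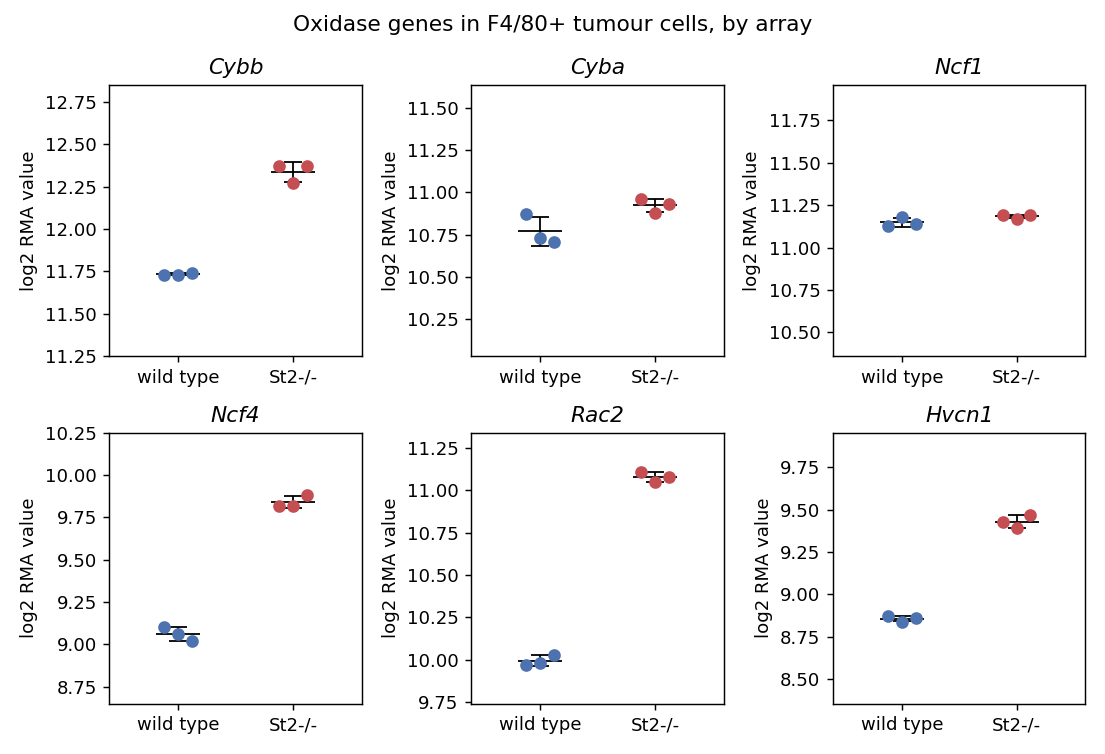
Log2 RMA values of the 6 oxidase genes on each array, with 3 wild type (blue) and 3 St2-/- (red) samples per panel; horizontal bars are group means and error bars are SD, and every panel spans the same log2 range. Groups are far apart for Cybb, Ncf4, Rac2 and Hvcn1, close for Cyba and overlapping for Ncf1.

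Of the cytosolic subunits, Ncf4 was called and Ncf1 was not. Ncf1 encodes the organizer that carries the cytosolic complex to the membrane. Its log2 values were 11.13, 11.18 and 11.14 in wild type and 11.19, 11.17 and 11.19 in St2-/-, and the groups overlapped. The log2 difference was 0.03 ± 0.06 (SE), with a 95% interval of -0.10 to 0.17 (limma adjusted p = 0.747). That interval does not reach the differences of the 4 called genes. The sign of the Ncf1 difference turned after cyclic loess between arrays (-0.06, adjusted p = 0.533), so no direction is given for it.

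Ncf4 encodes the subunit that binds phosphatidylinositol 3-phosphate and sustains the oxidase on phagosomes. Its log2 values were 9.10, 9.06 and 9.02 in wild type and 9.82, 9.82 and 9.88 in St2-/-. The groups stood apart with little spread in either. The means were 9.06 ± 0.04 and 9.84 ± 0.03 (SD, n = 3 each), which differ by 0.78 ± 0.06 (SE; limma adjusted p = 1.92e-05). Ncf1 minus Ncf4 within an array was 2.03 to 2.12 in wild type and 1.31 to 1.37 in St2-/-, a change of -0.75 (exact two-sided permutation p = 0.10, again the smallest possible, and 0.15 adjusted).

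Rac2 is the Rac GTPase of blood cells and, besides its part in the oxidase, acts on the actin cytoskeleton. Its log2 values were 9.97, 9.98 and 10.03 in wild type and 11.11, 11.05 and 11.08 in St2-/-. The means of 9.99 ± 0.03 and 11.08 ± 0.03 (SD, n = 3 each) differ by 1.09 ± 0.06 (SE; 95% interval 0.95 to 1.22; limma adjusted p = 2.04e-06), and 98.7% of all genes differed by less. Rac1, the widely expressed relative that can also serve the oxidase, had 11.78, 11.72 and 11.82 in wild type and 11.79, 11.71 and 11.79 in St2-/-. These values overlapped, and the log2 difference of Rac1 was -0.01 ± 0.06 (SE; limma adjusted p = 0.935), with a sign that turned in 4 of 15 other settings.

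Hvcn1 encodes a voltage-gated channel that lets protons out of the cytosol and so offsets the charge that the oxidase moves. Its log2 values were 8.87, 8.84 and 8.86 in wild type and 9.43, 9.39 and 9.47 in St2-/-. Again no array of one group reached the other, and Hvcn1 rose by a log2 difference of 0.57 ± 0.06 (SE; limma adjusted p = 0.000123). Hvcn1 minus Cybb within an array was -2.86 to -2.89 in wild type and -2.88 to -2.94 in St2-/-. Those ranges overlapped, and the change of -0.03 had an exact two-sided permutation p of 0.30.

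The 4 called genes kept their call and direction under all 15 other settings tried, at adjusted p-values of at most 0.0015. The scaling of the arrays moved all 6 differences together: they were 0.09 higher with arrays centred on their medians and 0.09 to 0.10 lower after cyclic loess. Centring on the median also changed the make-up of the calls over all genes, from 51.7% to 74.0% higher.

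**Figure D2:**
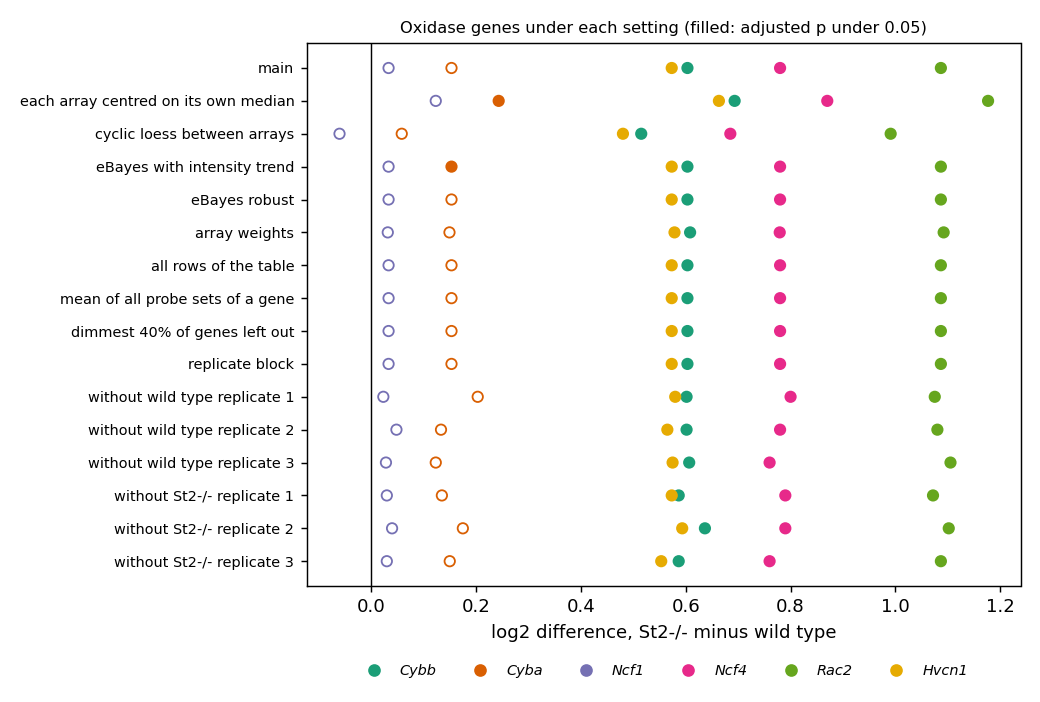
Log2 difference (St2-/- minus wild type, x axis) of each oxidase gene (colours) under each setting (y axis); filled points have an adjusted p under 0.05 and open points do not. Rac2, Ncf4, Cybb and Hvcn1 are filled in every row, Cyba in 2 alternatives only, and Ncf1 is open throughout and crosses 0 after cyclic loess.

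Promoter sequences were at hand in the RefSeq-based table (GRCm38.p6) for Cybb, Cyba and Ncf1, of which the first rose and the others were not called, and they are shown because Cybb is a textbook target of interferon regulatory factors. Each is the 250 bases before an annotated start, read 5′ to 3′ on the gene's strand, and capitals mark matches, on either strand, to the core of the interferon-stimulated response element, a site of those factors, searched as GAAA, any 2 bases and GAAA again.
Cybb, chrX:9469325-9469574, minus strand: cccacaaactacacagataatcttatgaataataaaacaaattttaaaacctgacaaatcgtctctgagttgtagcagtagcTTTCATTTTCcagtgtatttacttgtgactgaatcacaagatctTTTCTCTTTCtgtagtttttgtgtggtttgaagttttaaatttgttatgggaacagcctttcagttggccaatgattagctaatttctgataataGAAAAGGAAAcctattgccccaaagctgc
Cyba, chr8:122432941-122433190, minus strand: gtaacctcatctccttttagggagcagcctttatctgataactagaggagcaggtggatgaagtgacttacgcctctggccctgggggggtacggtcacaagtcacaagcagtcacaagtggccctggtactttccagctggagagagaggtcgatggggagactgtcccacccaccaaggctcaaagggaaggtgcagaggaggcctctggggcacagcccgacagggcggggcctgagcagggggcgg
Ncf1, chr5:134229626-134229875, minus strand: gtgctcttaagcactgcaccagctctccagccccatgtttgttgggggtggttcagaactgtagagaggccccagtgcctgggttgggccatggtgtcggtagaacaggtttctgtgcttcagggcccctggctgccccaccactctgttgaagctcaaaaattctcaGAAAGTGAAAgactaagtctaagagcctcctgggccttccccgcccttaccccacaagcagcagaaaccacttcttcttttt

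The Cybb window held 3 matches to this core, beginning 168, 124 and 29 bases before the start, the first and second of them on the opposite strand. The Ncf1 window held 1, beginning 82 bases before the start, and the Cyba window 0. Of 32851 such windows in the table, 2.98% held at least 1 match. The STAT-type motif TTCNNNGAA (7.02% of windows) matched once in the Ncf1 window, overlapping the core there, and in neither other window. The PU.1 core GAGGAA (23.3% of windows) and the joint Ets and IRF motif, GGAA, any 2 bases and GAAA (2.3%), matched in none of these 3 windows. The windows also differed in base composition, with 34.0% G and C for Cybb, 60.0% for Cyba and 54.4% for Ncf1. A match describes letters only, and whether a factor binds there was not measured.

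Genes of factors known to drive oxidase genes rose where they were called. Of 14 measured oxidase gene regulators, 6 were called higher and 0 lower, and the median difference was 0.07. Over all genes 10.7% were higher and 10.0% lower. Of the 14, 12 lay above the dimmest 40% of genes. With that 40% left out, 6 regulators were higher and 1 lower, beside 4505 of 11955 genes called in all. After cyclic loess the calls in this list were 5 higher and 1 lower. Irf8, an interferon regulatory factor of myeloid cells that acts on the Cybb promoter, had 9.17, 9.02 and 9.08 in wild type and 9.84, 9.76 and 9.84 in St2-/-. Irf8 rose by 0.72 ± 0.07 (SE; limma adjusted p = 5.39e-05) and Irf1, which is induced by interferon, by 0.61 ± 0.07 (adjusted p = 0.000164). The Ets family factor Elf1 rose by 0.51 and Cebpa, a factor of myeloid differentiation, by 0.36. Spi1, the gene of PU.1 and outside the naming rule, was called at 0.22 ± 0.06 (adjusted p = 0.0332), but it lost the call after cyclic loess (adjusted p = 0.228), with the replicate block, over all rows of the table and without any array other than wild type replicate 3.

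No further subunit or relative of the oxidase was called. Of 12 measured genes (Rac1, Rap1a, the chaperone gene Cybc1, and the Nox and Duox enzymes of other tissues with their partners) 0 were called, 1 had an unadjusted p under 0.05 and 8 lay among the dimmest 40% of genes. Cybc1, whose protein is needed for a stable cytochrome, had 8.12, 8.04 and 7.96 in wild type and 8.14, 8.20 and 8.10 in St2-/-, which overlapped (log2 difference 0.11 ± 0.07, SE; limma adjusted p = 0.317). Duox2, an oxidase of epithelia, differed by -0.20 (adjusted p = 0.0943) and was called without wild type replicate 2 (adjusted p = 0.0304). Nox3 of the inner ear and Nox4 of kidney and vessels differed by -0.15 and -0.16 (adjusted p = 0.256 and 0.313).

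**Figure D3:**
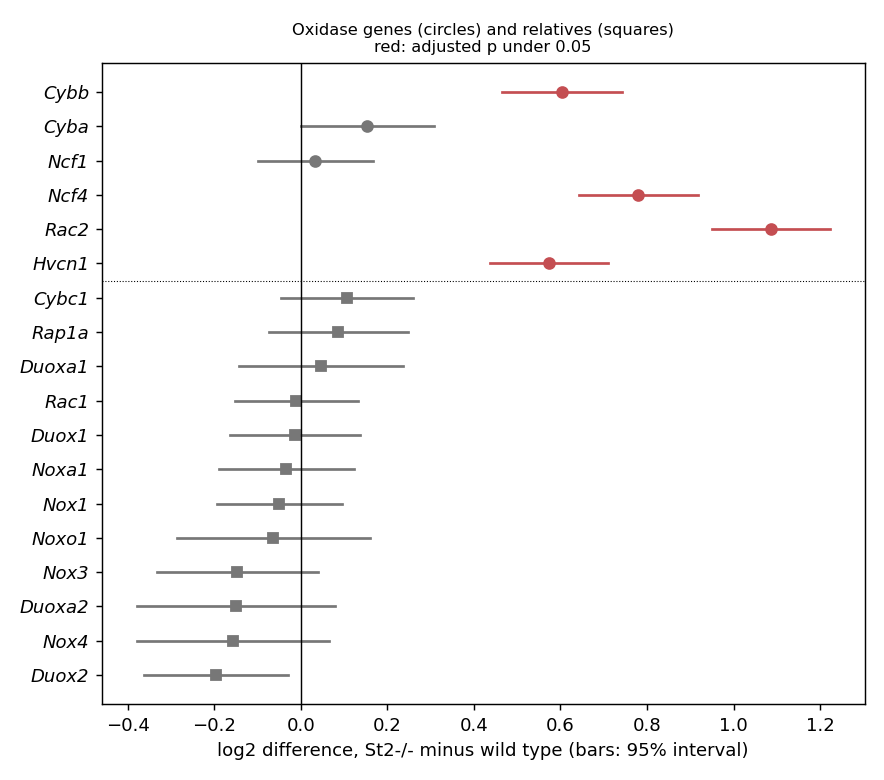
Log2 difference (St2-/- minus wild type, x axis) with its 95% interval for the 6 oxidase genes (circles) and 12 measured relatives (squares); red marks an adjusted p under 0.05. Rac2, Ncf4, Cybb and Hvcn1 are red, and the interval of Rac1 lies around 0 while that of Rac2 runs from 0.95 to 1.22.

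Genes whose products help to switch the oxidase on were called in both directions. Of 24 measured oxidase activation genes 10 passed as higher and 3 as lower, around a median of 0.12. Over all genes 10.7% passed as higher and 10.0% as lower. All 24 lay above the dimmest 40% of genes. With that 40% left out, 10 of them were higher and 3 lower, beside 4505 of 11955 genes called in all. After cyclic loess the calls in this list were 8 higher and 4 lower. Prkcb, a protein kinase C that phosphorylates Ncf1, rose by 0.82 (means 8.90 ± 0.09 and 9.72 ± 0.03, SD, n = 3 each; limma adjusted p = 2.93e-05). Pla2g4a, which frees the arachidonic acid that stimulates the oxidase, rose by 0.64 (adjusted p = 0.000129). S100a8 and S100a9, whose proteins carry arachidonic acid to the oxidase in neutrophils, fell instead, by 1.77 and 1.69 on the log2 scale. Both are also markers of neutrophils and monocytes. Prkca, named after its value was seen, was the third lower gene (-0.45).

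The genes that remove oxidants and the genes tied to NADPH supply likewise moved in both directions. Of 23 measured oxidant handling genes 8 passed as higher and 2 as lower (median 0.03), and after cyclic loess 5 and 4 did; without St2-/- replicate 3, or over all rows of the table, 6 were called in all. Sod3, the extracellular superoxide dismutase, fell (means 6.96 ± 0.17 and 6.09 ± 0.15, SD, n = 3 each; difference -0.86; limma adjusted p = 0.000276). The glutathione reductase gene Gsr rose by 0.40, the regulator gene Nfe2l2 (NRF2) by 0.31 and Keap1, which restrains NRF2, by 0.45. Of 13 measured NADPH supply genes 5 passed as higher and 2 as lower (median 0.09). That list also holds steps that do not make NADPH themselves. Among those, the hexokinase genes Hk2 and Hk3 both rose by 0.68. Tkt, the transketolase of the pentose phosphate pathway and another such step, rose by 0.48. The other higher genes were Rpia (0.43) and Me2 (0.30). Me1, the cytosolic malic enzyme, and Idh1, which both make NADPH, were the lower genes (-0.59 and -0.50). Pgd and Idh2, which make it too, were not called (-0.02 and -0.18), and G6pdx was not measured. The shares called in these lists, 10 of 23 and 7 of 13, stand beside 20.8% over all genes. Most genes of these lists were bright, however, and 21 of the 23 and all 13 lay above the dimmest 40% of genes. With that 40% left out, 11 and 8 genes of these lists were called, beside 4505 of 11955 genes in all.

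**Figure D4:**
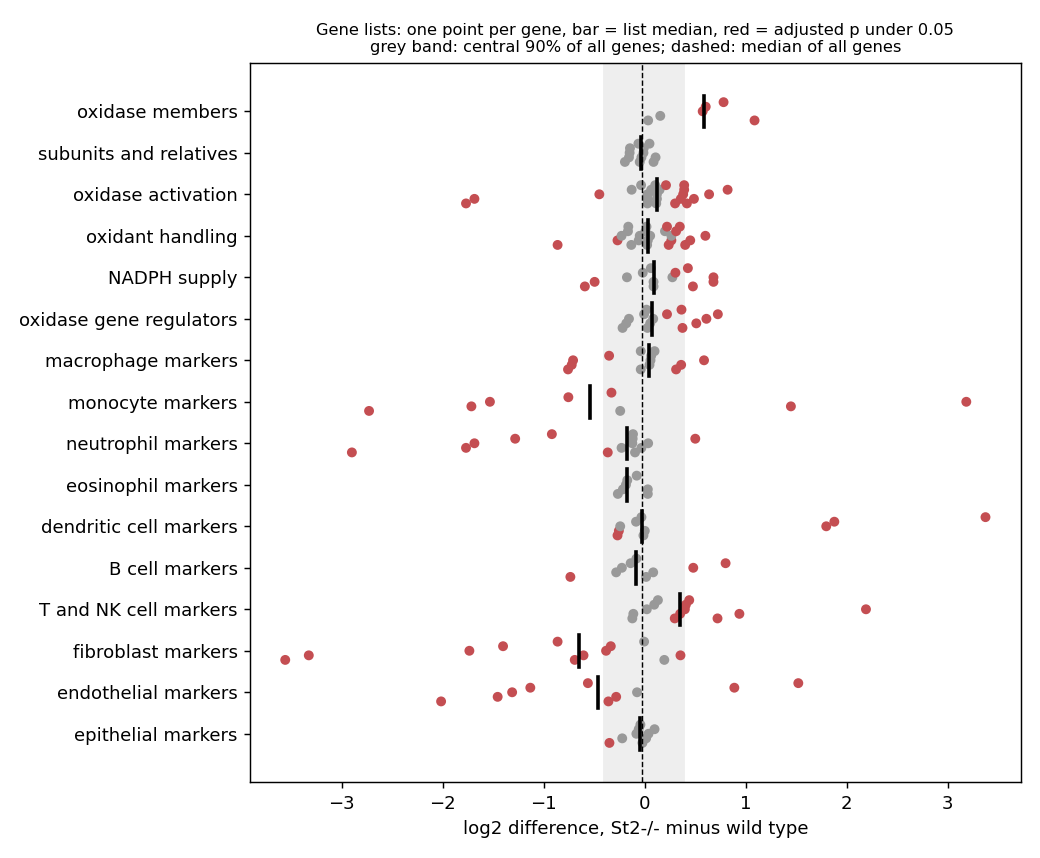
Log2 difference (St2-/- minus wild type, x axis) of every measured gene of each list (y axis), with red points for an adjusted p under 0.05, a black bar for the list median, a grey band for the central 90% of all genes and a dashed line for their median. The oxidase genes have a median of 0.59, while their relatives centre on -0.04 and the activation, oxidant and NADPH lists have called genes on both sides.

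Ncf4 and Rac2 lie near each other on chromosome 15 in the mouse gene order (GRCm38.p6), with 10 protein-coding genes between them. Of these 4 were higher, 1 lower and 5 not called, beside 10.7% higher and 10.0% lower over all genes. Il2rb, the beta chain of the IL-2 and IL-15 receptors, had 4.09, 4.21 and 4.08 in wild type and 4.94, 4.71 and 5.01 in St2-/-, a rise of 0.76 ± 0.09 (SE; limma adjusted p = 0.000209). Csf2rb, the shared receptor chain for GM-CSF, IL-3 and IL-5, rose by 0.39 ± 0.06 (SE; adjusted p = 0.00228), although it and its neighbour Csf2rb2 are close copies that the probes may not tell apart. Kctd17 was the lower gene (-0.28, adjusted p = 0.0232), and its adjusted p rose to as much as 0.0798 under other settings, among them leaving out any array but wild type replicate 2. The other higher genes were Csf2rb2, which was not called once wild type replicate 3 or any St2-/- replicate was left out (adjusted p up to 0.122 over all settings), and Mpst, for which that held of wild type replicates 1 and 2 and every St2-/- replicate (up to 0.120). Genes not called, such as Tst, C1qtnf6 and Sstr3, lay between those that rose.

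**Figure D5:**
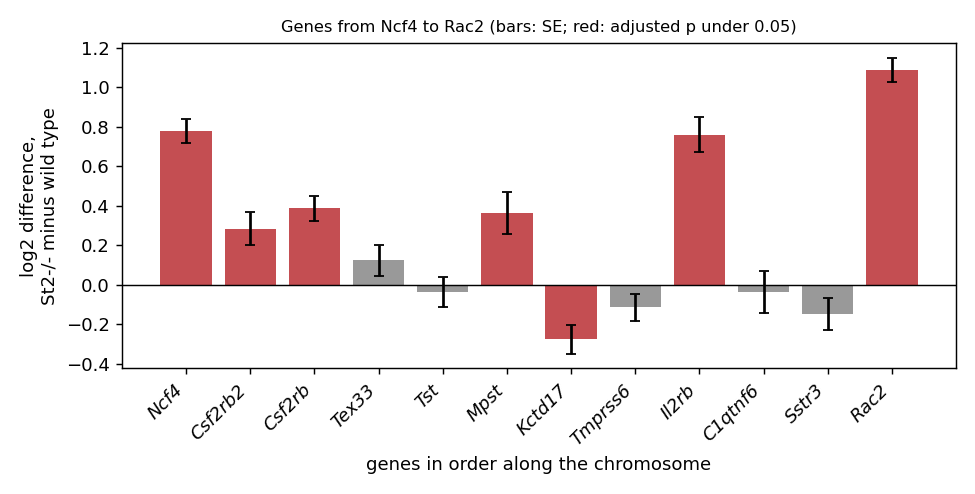
Log2 difference (St2-/- minus wild type, y axis) of the genes from Ncf4 to Rac2 in their order along chromosome 15, spaced evenly; error bars are SE and red bars have an adjusted p under 0.05. Ncf4, Il2rb (a dim gene) and Rac2 are tallest at 0.78, 0.76 and 1.09, with uncalled and lower genes between.

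The genes most like each oxidase gene were sought by the root mean square difference of log2 values, each gene centred on its own mean, over the 6 arrays. This measure follows the size of the group difference and the scatter of single arrays and says nothing of shared control. Cybb was nearest to the chemokine gene Cxcl16 (0.013) and the kinase gene Pim1 (0.018). Ncf4 was nearest to the SLAM family gene Slamf9 (0.024) and to Aoah (0.029), an enzyme that inactivates lipopolysaccharide. Rac2 was nearest to the phosphatase gene Dusp4 (0.024) and Fcho1 (0.035), and Hvcn1 to Rnf213 (0.017) and Parp14 (0.017), which are both known as interferon-inducible genes. Cyba was nearest to Rad50 (0.012) and Hint3 (0.015), and Ncf1 to Rnf14 (0.009) and Ppp6r1 (0.011), none of which was called.

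The oxidase genes are active in many leukocytes, so markers of the labelled cells and of others are given beside them. The counts in each marker list stand beside 10.7% higher and 10.0% lower over all genes. Macrophage genes were bright in both groups: Cd68 averaged 12.57 and 12.53, Csf1r 12.07 and 12.11, and Adgre1, the gene of F4/80, 11.32 and 11.63 in wild type and St2-/-. Adgre1 rose by 0.31, the Fc receptor gene Fcgr1 by 0.36 and Aif1 by 0.59. Mertk (-0.72), Msr1 (-0.76), Lyz2 (-0.71) and Cd14 (-0.35) fell, and Csf1r and Cd68 were not called. Of 13 measured macrophage markers 3 were higher and 4 lower, and their mean log2 level over the list was 11.36 to 11.40 on the wild type arrays and 11.26 to 11.31 on the St2-/- arrays.

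Neutrophils, which carry the most active oxidase of blood cells, had 6 of 14 markers lower, 1 higher and 7 not called, and their mean log2 level was 5.60 to 5.64 in wild type and 4.95 to 4.99 in St2-/-. Lcn2 (-2.90) and S100a8 (-1.77) fell, and Csf3r (0.50) was the higher marker. The defining marker Ly6g was not called (-0.12), at low means of 4.14 in wild type and 4.02 in St2-/-. Of the 14 neutrophil markers 8 lay among the dimmest 40% of genes, where a change is hard to see. Monocyte markers had 5 of 8 lower and 2 higher (7.69 to 7.73 against 7.36 to 7.40), with F13a1 at -2.73 and Fn1 at -1.72. The higher monocyte markers, Plac8 (3.18, the greatest change in this list) and Treml4 (1.45), went the other way. Of 7 eosinophil markers 0 were called (4.48 to 4.59 against 4.33 to 4.45), with 0 at an unadjusted p under 0.05. As 6 of these 7 lay among the dimmest 40% of genes, their lack of calls says little.

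Some lymphoid and dendritic markers moved the same way as the oxidase genes. T and NK cell markers had 8 of 13 higher and 0 lower (mean log2 level 4.54 to 4.65 against 5.02 to 5.08), led by Cd4 (2.19) and Cd3g (0.94). The 5 not called were Cd3d (0.02), Gzma (-0.12), Eomes (0.13) and the NK cell genes Ncr1 (0.09) and Klrb1c (-0.11). Cd8a (0.30) kept its call in 9 of 15 other settings. Of these 13 markers 8 lay among the dimmest 40% of genes, the 5 not called among them. Dendritic cell markers had 3 of 10 higher, 2 lower and 5 not called (5.51 to 5.67 against 6.18 to 6.26), with a median difference of -0.02. The higher ones were Xcr1 (3.37), Itgax (1.80) and Clec9a (1.88), and the lower ones Ccr7 (-0.26) and Cd209a (-0.27). Ccr7 kept its call in 10 of 15 other settings and Cd209a in 3 of 14. Flt3, Zbtb46 and Batf3 were among those not called. B cells also use Hvcn1, and their markers had 2 of 9 higher and 1 lower (4.56 to 4.62 against 4.51 to 4.63), with Cd79b at 0.80 and Ebf1 at -0.74. All but 1 of the B cell markers lay among the dimmest 40% of genes.

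Fibroblast markers had 9 of 12 lower and 1 higher (mean log2 level 7.40 to 7.42 against 6.35 to 6.42). Dcn was at -3.33 and Lum at -3.56, and Col1a2 (0.35) was the higher one. Endothelial markers had 7 of 10 lower and 2 higher (6.28 to 6.40 against 5.84 to 5.89), with Flt1 at -2.02 and Vwf at -1.13 but Kdr at 1.52 and Pecam1 at 0.89 as the higher ones, and epithelial markers had 1 of 9 lower, Krt8 (-0.35), which was not called without wild type replicate 2 or 3 or any St2-/- replicate (adjusted p up to 0.101). The part of any of these cells in the oxidase values was not tested. In bulk RNA such as this, a changed share of cells and a changed amount of RNA per cell cannot be told apart.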

How the data were processed

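Gene expression was measured on 6 Affymetrix Gene 1.0 ST arrays, per the labels' protocols. The deposited log2 values were made by the authors with RMA, per the submitters' processing notes; the sources used here give neither its version nor the annotation or log base, and base 2 was taken because RMA returns it. RMA equalises the arrays' distributions, which hides any shift common to most genes. The number of arrays limits the precision, and the files give no signal background.

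Of 35556 probe sets, 21789 were paired with 1 symbol by the platform annotation, and each of 19938 genes was read from its brightest such probe set (mean over all 6 arrays). Groups were compared with limma (version 3.58.1, R 4.3.3; two-sided lmFit and eBayes fit, no filter on dim genes, Benjamini-Hochberg over all genes), which was also tested on simulated data. Ratios of genes within an array were compared by exact permutation of the samples. The oxidase genes, gene lists, motifs and tests were chosen with earlier results of these data known. Genes were named by rule: the 6 oxidase genes, up to 4 genes of each pathway list and 2 of each marker list by smallest p, Rac1 and Cybc1, 5 macrophage genes, 2 genes most like each oxidase gene and 3 called genes between Ncf4 and Rac2. Other names are background or were chosen after their values were seen. The alternatives were 2 other scalings, other variance priors, array weights, all rows, the mean of a gene's probe sets, leaving out dim genes, the replicate number as a block and leaving out each array.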

Additional observations from a re-analysis of the deposited data

How the results depend on the processing

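Rac2, Ncf4, Cybb and Hvcn1 kept their direction and stayed called under all 15 alternatives. Cyba was called after centring each array on its median (0.24) and with an intensity trend in the variance prior (0.15), and the Ncf1 difference turned to -0.0602 after cyclic loess; the cause was not tested. Without single arrays, differences ranged from 1.07 to 1.11 for Rac2, 0.76 to 0.80 for Ncf4, 0.59 to 0.64 for Cybb, 0.55 to 0.59 for Hvcn1, 0.12 to 0.20 for Cyba and 0.02 to 0.05 for Ncf1. Calls over all genes ranged from 2887 to 3852 without single arrays, against 4140. In the oxidant handling list they numbered 10, 6 over all rows of the table and 6 to 9 without single arrays, the lowest without St2-/- replicate 3. Among the oxidase relatives they numbered 0 to 1, with Duox2 called without wild type replicate 2. Same-numbered samples did not deviate together (correlations of 0.012, -0.012 and -0.048), so the numbers were not taken as pairs; with the replicate block 4 oxidase genes and 3571 genes in all were called, Cybb at 0.60 (adjusted p = 0.000992). A single probe set per oxidase gene, 3 arrays per group and the absence of a background signal limit these values.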
